A study of Mus musculus with 123 samples.

Results

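Large myelinated neurons of the mouse dorsal root ganglion (DRG) were followed through 8 marker genes, taken by symbol from the 24134 genes in the tables: Pvalb, Calb1, Calb2, Necab2, Ldhb, Car3, Spp1 and Stxbp6. All 8 symbols were found. The study set neurons from the side of a sciatic nerve transection (SNT) against neurons from the uninjured opposite side, to ask how single sensory neurons respond to loss of their peripheral axon. Single neurons were picked by hand and their polyadenylated RNA was sequenced by Smart-seq2, and pooled neurons were sequenced as well. Of 117 single-cell libraries, 106 were kept by the authors, and the 11 left out were all from day 3 (7 SNT-side and 4 control-side cells).

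The day-3 groups were 41 cells of the SNT side, 18 of the control side and 6 pooled libraries (3 for each side), from F1 mice of a CAST/Eij male and a C57BL/6 female. The paper gives these F1 mice as female. The day-7 groups held 33 SNT-side cells (16 female, 17 male) and 14 control-side cells (7 female, 7 male) from C57BL/6 mice. All mice were 2 months old, and the right sciatic nerve was cut at mid thigh under ketamine and xylazine. Both sides came from operated animals, so no group from an animal without surgery was analysed here. A part of the neurons of these ganglia does not send its axon into the sciatic nerve, so the SNT side can hold cells whose axon was not cut. The labels name no animal, so each side and day is 1 sample of cells. Cells were therefore not tested, and an SD over cells is the spread among cells and not among animals. The days also differ in strain, sex of the mice, sequencer and read length, so they were not compared with each other. The 3 pooled libraries of a side were parts of 1 lysate, so the test on them covers the technical spread only. The column names of the pooled libraries and the identifier line of the table assign the sides in opposite ways. The names were used here, and under the other assignment every pooled difference changes its sign. In the pooled libraries, fewer cells of a type and less RNA per cell cannot be told apart.

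Values are given as CPM, the count of a gene divided by the total of its library and multiplied by 1000000. Totals ran from 277390 to 1849130 counts in the 106 kept cells and from 563462 to 2003817 in the pooled libraries. The libraries named SNT side carried 4739 to 4798 CPM of 5 summed injury genes (Atf3, Jun, Sprr1a, Gap43 and Sox11), against 206 to 256 CPM in those named control side. The summed level of 10 glial genes was 6143 to 6930 CPM in the SNT-side pools and 12542 to 15177 CPM in the control-side pools, and its part in the pooled differences was not tested. Immune, muscle and adipocyte markers together were low, at no more than 8.98, 4.80 and 1.74 CPM in any pooled library.

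Sensory neurons with thick, myelinated axons carry touch and limb position. They are rich in neurofilament, such as the heavy chain Nefh, whereas P2rx3, an ATP-gated channel, marks the unmyelinated non-peptidergic nociceptors. The list joins calcium-binding proteins with EF-hand motifs (Pvalb, calbindin Calb1, calretinin Calb2 and Necab2), enzymes (the lactate dehydrogenase subunit Ldhb and the carbonic anhydrase Car3), the secreted phosphoprotein osteopontin (Spp1), and the syntaxin-binding protein amisyn (Stxbp6). Pvalb is the classic marker of proprioceptors, and Calb1 is used as a marker of subsets of touch receptors.

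The genes were first checked against Nefh and P2rx3 over the kept cells (59 at day 3, 47 at day 7). Ldhb followed Nefh most closely, with a Spearman rho of 0.81 at day 3 and 0.57 at day 7, and ran against P2rx3 (rho -0.67 and -0.37). Ldhb also had a rho with the summed glial genes of 0.71 at day 3 and -0.043 at day 7, whose part was not tested. Spp1 had a rho with Nefh of 0.51 and 0.37, and Pvalb of 0.38 on both days. Car3 had a rho with Nefh of 0.28 at day 3 and -0.20 at day 7, so at day 7 it did not rank cells as neurofilament did. All 8 genes had a negative rho with P2rx3 on both days, from -0.67 to -0.25 at day 3 and from -0.68 to -0.11 at day 7. Cells of a day may share steps of library preparation, and depth was not matched in these coefficients. Calb2 was close to absent, with no kept day-3 cell and 1 day-7 cell above 10 CPM.

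In pooled neurons at day 3, Car3 was higher on the SNT side, while Calb1, Stxbp6 and Necab2 were lower, and Pvalb, Spp1 and Ldhb did not pass the test. A gene was called when the adjusted p of edgeR's quasi-likelihood test was below 0.05 and the log2 change was larger than 1 either way. Of 7 markers tested, 1 was called higher and 3 lower, with a median log2 change of -0.062. Over all 13509 genes tested, 16% were called (8.85% higher, 7.1% lower), with a median of 0.018. Calb2 had 1, 0 and 2 counts in the control-side libraries and 0, 0 and 1 in the SNT-side libraries, and was below the filter of a mean of 1 CPM.

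Among the calcium-binding genes, Calb1 showed the largest decrease. It was at 403, 318 and 410 CPM in the control-side libraries and at 13.7, 12.2 and 9.48 CPM in the SNT-side libraries. The sides did not overlap, as was true of 38% of all genes tested, and the log2 change was -4.84 (SE 0.21, edgeR adjusted p = 4.5e-21). Necab2 was at 15.1, 17.9 and 10.6 CPM in control-side libraries and at 4.18, 4.35 and 4.49 CPM in SNT-side libraries, a log2 change of -1.58 (SE 0.57, edgeR adjusted p = 0.035). This call was narrow, because it was lost with DESeq2 (adjusted p = 0.074) and without any one of 5 of the 6 libraries (edgeR adjusted p from 0.071 to 0.13). Pvalb stood at 5.50, 5.96 and 3.55 CPM (control side) and 14.9, 9.57 and 7.98 CPM (SNT side). All 3 SNT-side values lay above the control-side values, but the log2 change of 1.22 (SE 0.60, edgeR adjusted p = 0.14) was not called.

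The enzyme genes parted. Car3, a carbonic anhydrase best known from muscle and fat, was at 1.38, 5.96 and 3.55 CPM in control-side and 80.1, 85.3 and 80.8 CPM in SNT-side libraries. Its log2 change was 4.57 (SE 0.38, edgeR adjusted p = 1.6e-12), and every SNT-side library lay above every control-side library. Of 8 muscle markers, Ckm, Tnnt3, Tnnc2 and Myl1 were at 0 in all 6 pooled libraries, and Myh1, Myh4 and Mb were at 1.19 CPM or less in each. Acta1, the skeletal muscle actin, was at 0, 1.22 and 0 CPM in control-side and 1.82, 1.77 and 3.369 CPM in SNT-side libraries, and its log2 change was not called. The summed muscle level was 0 to 2.41 CPM on the control side and 1.77 to 4.80 CPM on the SNT side, and its part in the Car3 level was not tested. Ldhb was at 639, 874 and 657 CPM in control-side and 554, 625 and 686 CPM in SNT-side libraries, with overlapping values and a log2 change of -0.062 (SE 0.13, edgeR adjusted p = 0.80).

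Spp1 was at 60.5, 91.8 and 74.5 CPM in control-side and 80.1, 94.0 and 80.9 CPM in SNT-side libraries. Its sides overlapped, and the log2 change of 0.31 (SE 0.21, edgeR adjusted p = 0.31) was not called. Stxbp6 was at 58.6, 26.6 and 60.9 CPM in control-side and 2.41, 7.503 and 5.54 CPM in SNT-side libraries, without overlap, a log2 change of -3.06 (SE 0.43, edgeR adjusted p = 3.5e-07). Stxbp6 overlaps 2 non-coding genes of the reference annotation (Gm15901 on the opposite strand, Gm15902 on the same strand), and Spp1 overlaps Gm42793 on the same strand. Reads could be shared with the same-strand genes whether or not strand was used in counting. For Gm15901 this holds only where strand was not used, which the sources do not state. The authors counted genes of another annotation, RefSeq.

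**Figure D1:**
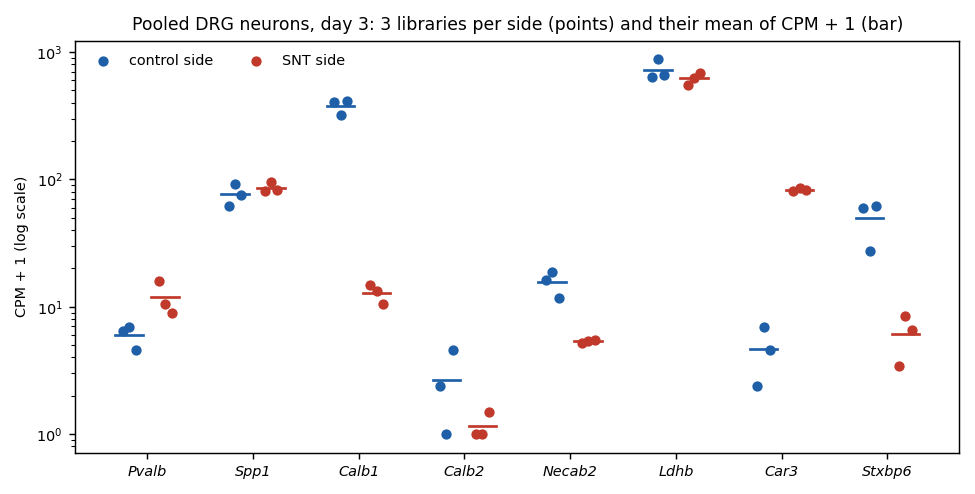
Levels of the 8 marker genes in pooled DRG neurons at day 3, as CPM + 1 on a log scale, with 1 point per library (3 per side) and a bar at the mean of each side. Car3 lay higher, and Calb1, Stxbp6 and Necab2 lower, in all SNT-side libraries, whereas Spp1 and Ldhb overlapped.

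Other genes of large sensory neurons moved in both directions. Of 19 listed genes, 18 were tested in the pools, 6 were called higher on the SNT side, 2 lower and 10 not called, with a median log2 change of 0.72, where 8.85% of all genes were called higher and 7.1% lower. The neurofilament genes Nefh and Nefm were higher by log2 1.19 and 1.16, the neurotrophin-3 receptor Ntrk3 by 1.62, and the vesicular glutamate transporter Slc17a7 by 1.43. Esrrg, a nuclear receptor, changed by -1.75 and the sodium channel Scn1a by -1.04. The receptor gene Ntrk2 and the transcription factor gene Etv1 stood at lower values in every SNT-side library (log2 changes -0.78 and -0.83), below the size needed for a call.

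The relatives of the markers were taken as a second list of 24 genes (17 tested), of which 2 were called higher and 3 lower, with a median of -0.14. Among them Car1, a carbonic anhydrase of red blood cells, had 0 counts in the control-side pools and 14.9, 16.5 and 13.96 CPM in the SNT-side pools, at least 10.8-fold higher when the control side is set to 3 counts over the group. Summed erythrocyte markers were at 0 to 10.7 CPM in the control-side pools and 6.96 to 12.5 CPM in the SNT-side pools, and their part in the Car1 level was not tested. Necab3 changed by -1.80 on the log2 scale, next to -1.58 for its relative Necab2. Without SNT-side library 3 the count of relatives called fell to 3 of 24.

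Single cells showed that most of the markers were carried by few cells. At day 3 the means of Car3, Pvalb and Spp1 were higher on the SNT side and that of Necab2 was lower, by a log2 ratio of means (1 CPM added to each) beyond 1 where the higher mean was 10 CPM or more. By this rule of size, 11.9% of 9736 genes at that level passed (5.82% higher, 6.07% lower), with a median of -0.050, against 3 markers higher and 1 lower of 7, with a median of 0.91. At day 7 the same 3 genes were higher and Calb1 was lower, and the median of the 7 markers was 0.33. At that time 7.66% of 9622 genes passed (4.45% higher, 3.2% lower), with a median of -0.069. With medians over cells in place of means, no marker passed at day 3 and 2 passed at day 7. With each cell left out in turn, an alternative added after the values were seen, Spp1 at day 3 and Calb1 at day 7 each lost the call without 1 cell, while the other markers that passed did so throughout.

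**Figure D2:**
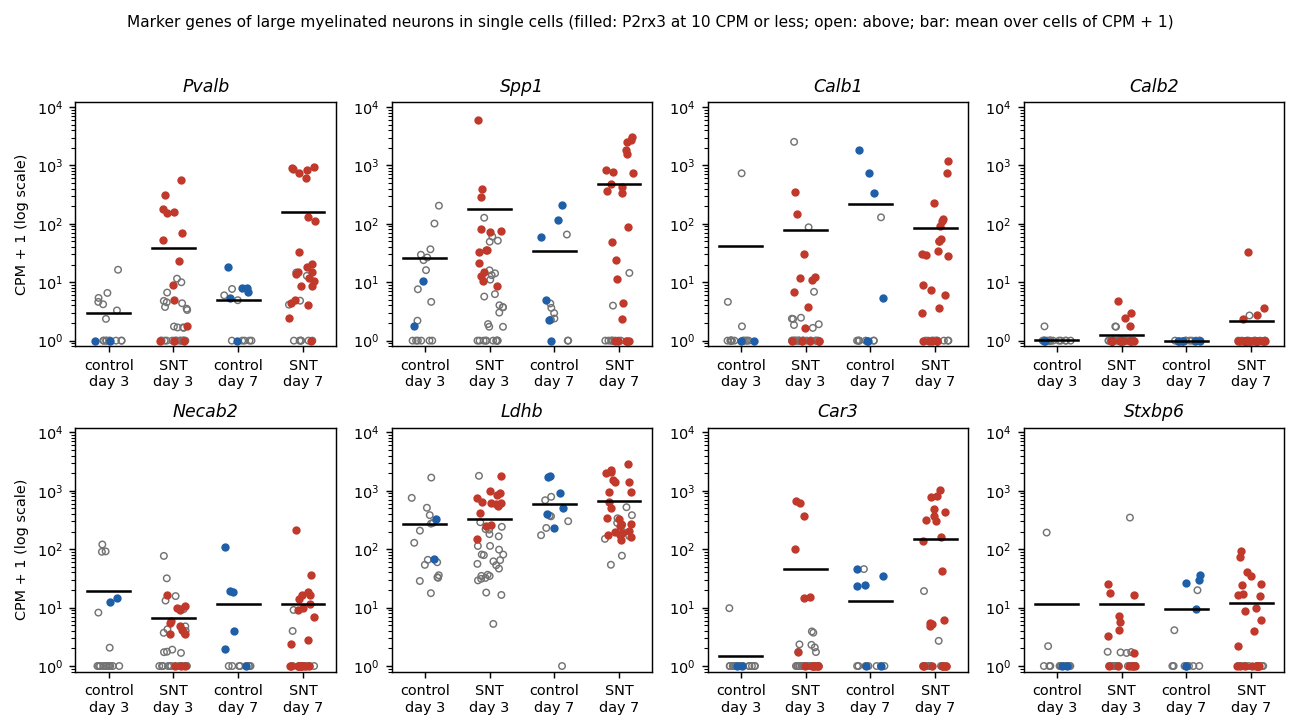
Level of each marker gene in every kept cell (CPM + 1, log scale) by side and day, with filled points for cells with P2rx3 at 10 CPM or less, open points for the others and a bar at the mean of CPM + 1. High values of Pvalb, Spp1 and Car3 came from a minority of SNT-side cells, nearly all of them low in P2rx3, while Ldhb was present in almost all cells.

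Pvalb ran from 0 through a median of 0 to 15.3 CPM in control-side cells at day 3, and from 0 through 0.744 to 566 CPM in SNT-side cells. All control-side cells were exceeded by 8 of 41 SNT-side cells. At day 7 the control side ran from 0 through 4.18 to 17.2 CPM and the SNT side from 0 through 11.04 to 937 CPM, with 11 of 33 SNT-side cells above every control-side cell. The means were 160 ± 316 CPM (SD over 33 cells) against 4.05 ± 4.80 CPM (14 cells), a log2 ratio of 5.00. More than 10 CPM of Pvalb was found in 17 of 33 cells on the SNT side (51.5%, 33.5 to 69.2 as exact binomial 95% interval) against 1 of 14 on the control side (7.143%, 0.181 to 33.9). These and all such intervals cover counting error only. Female and male SNT-side cells had means of 172 and 149 CPM, and female and male control-side cells of 3.461 and 4.64 CPM.

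Spp1 was at 0 to 203 CPM (median 5.09) in control-side cells and 0 to 5962 CPM (median 9.65) in SNT-side cells at day 3. The sides overlapped over most of this range, since only 3 of 41 SNT-side cells exceeded all control-side cells, and a single SNT-side cell, cell 3, held 80.6% of the summed CPM. Its share of cells above 10 CPM was 48.8% (32.9 to 64.9) on the SNT side and 38.9% (17.3 to 64.3) on the control side. At day 7 the range was 0 to 205 CPM (median 2.30) on the control side and 0 to 3072 CPM (median 10.3) on the SNT side, and 12 of 33 SNT-side cells exceeded all control-side cells. The log2 ratio of means was 3.83 at day 7. At day 3 it was 2.80 with SNT-side cell 3 and 0.50 without it (35.9 against 25.1 CPM), so the higher mean at day 3 rests on that cell. Glial RNA moved with Spp1 at day 3: its rho with the summed glial markers was 0.73 over 59 cells, and without the 28 cells above 5000 CPM of these markers the log2 ratio was -0.075 (4.79 against 5.10 CPM). At day 7 that rho was -0.36 over 47 cells. Macrophages also make Spp1, and 9 summed immune markers, which reached 298 CPM in 1 SNT-side cell at day 3 and 412 CPM in 1 at day 7, had a rho with Spp1 of 0.0029 and 0.12. Among SNT-side cells at day 3, the summed glial markers had a median of 8063 CPM in the 14 cells with P2rx3 at 10 CPM or less. In the 27 others it was 2334 CPM. Leaving out cells rich in glial markers thus also leaves out many cells low in P2rx3, and the 2 cannot be told apart here. The part of glial RNA in the day-3 level was not tested.

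Car3 was above 0 in 1 of 18 control-side cells at day 3 (8.77 CPM, 6 counts), while SNT-side cells ran from 0 to 680 CPM with a median of 0. It passed 10 CPM in 6 of 41 cells of the SNT side (14.6%, 5.57 to 29.2) and 0 of 18 of the control side (upper bound 18.5%), and all 6 lay above the control side. At day 7 control-side cells ran from 0 through 0 to 44.7 CPM and SNT-side cells from 0 through 1.70 to 1014 CPM. The shares above 10 CPM were alike at day 7, at 36.4% on the SNT side (12 of 33, 20.4 to 54.9) and 35.7% on the control side (5 of 14, 12.8 to 64.9). The levels within those cells were not alike, for 10 SNT-side cells stood at 137 to 1014 CPM, above every control-side cell. The log2 ratios of means were 4.92 at day 3 and 3.52 at day 7.

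Calb1 was carried by very few cells. At day 3 a single control-side cell, cell 3, was above 10 CPM at 731 CPM, and 7 of 41 SNT-side cells were, the highest of them at 2528 CPM. These 2 cells held 99.4% and 79.1% of the summed CPM of their sides, so the log2 ratio of 0.91 rests on them. At day 7, 4 of 14 control-side cells stood at 128 to 1840 CPM and 13 of 33 SNT-side cells above 10 CPM, with a highest value of 1166 CPM. The mean was lower on the SNT side (82.8 ± 234 against 218 ± 512 CPM, log2 ratio -1.39), although the ranges of the sides overlapped. Without control-side cell 8, at 1840 CPM, the control-side mean was 93.6 CPM and the log2 ratio -0.17, which no longer passed. The direction also depended on which cells were counted, as it was 2.93 in female cells alone and 2.43 without the 20 cells above 5000 CPM of glial markers. In male cells the means were 18.8 CPM (SNT side) and 418 CPM (control side).

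Stxbp6 followed Calb1 in part, with a rho of 0.48 at day 3 and 0.79 at day 7. Necab2 followed Calb1 less closely, with a rho of 0.32 and 0.42. Stxbp6 reached 192 CPM in control-side cell 3 and 347 CPM in SNT-side cell 18 at day 3, the same 2 cells that led Calb1, and every other day-3 cell was at 24.5 CPM or less. The log2 ratio of Stxbp6 was -0.049 at day 3 and 0.33 at day 7, with ranges that overlapped on both days. Necab2 ran from 0 through 0 to 119 CPM in control-side cells and from 0 through 2.57 to 75.7 CPM in SNT-side cells at day 3, a log2 ratio of -1.55 (-1.02 without control-side cell 7) with 5 of 18 and 5 of 41 cells above 10 CPM. By medians the order of the sides turned round (log2 ratio 1.84). At day 7 its log2 ratio was 0.048, and the ranges overlapped.

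Ldhb, which makes the heart-type subunit of lactate dehydrogenase, was the only marker of the list found in nearly every cell. It was above 10 CPM in all 18 control-side and 40 of 41 SNT-side cells at day 3, and in 13 of 14 and all 33 at day 7. Day-3 cells ran from 16.7 through 97.8 to 1682 CPM on the control side and from 4.26 through 151 to 1805 CPM on the SNT side. Its log2 ratio was 0.27 at day 3 and 0.13 at day 7, and the sides overlapped on both days. Calb2 was above 10 CPM in 1 kept cell, SNT-side cell 2 at day 7 with 31.8 CPM, and in no control-side cell of 18 at day 3 (upper bound 18.5%) or 14 at day 7 (upper bound 23.2%).

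Cells with P2rx3 at 10 CPM or less were then taken apart from the rest. They made up 11.1% of control-side cells (2 of 18, 1.38 to 34.7) and 34.1% of SNT-side cells (14 of 41, 20.1 to 50.6) at day 3, and 6 of 14 (42.9%, 17.7 to 71.1) and 23 of 33 (69.7%, 51.3 to 84.4) at day 7. Since neurons were picked by size and by hand, these shares can follow the picking as well as the cells, and this was not tested. P2rx3 itself was lower on the SNT side of the day-3 pools (298 against 782 CPM, log2 change -1.23, edgeR adjusted p = 5.4e-10). The cells under this limit need not be the same kinds of neuron on both sides, which was not tested. Just inside the limit, the highest P2rx3 values were 9.47, 8.35, 6.87 and 8.83 CPM (control and SNT side at day 3, then at day 7), and just outside it the lowest were 13.8, 16.02, 12.9 and 23.4 CPM. The cells that led Calb1 and Stxbp6 at day 3 lay just outside, with 20.5 CPM of P2rx3 in control-side cell 3 and 16.02 CPM in SNT-side cell 18.

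In these P2rx3-low cells at day 7, Pvalb, Spp1 and Car3 were higher on the SNT side (23 cells) than on the control side (6 cells), and Calb1 was lower. The mean of Pvalb was 229 ± 359 against 6.86 ± 5.69 CPM, a log2 ratio of 4.87. The 6 control-side cells stood at 0 to 17.2 CPM, with a median of 6.30, and 11 of 23 SNT-side cells lay above all of them. Spp1 was at 688 ± 965 against 63.8 ± 82.4 CPM (log2 ratio 3.4), with 12 SNT-side cells above 205 CPM, the most in a control-side cell. Car3 was at 212 ± 307 against 20.7 ± 17.9 CPM (log2 ratio 3.3), and 10 SNT-side cells lay above all control-side cells. Its median, however, was 5.13 CPM in SNT-side and 22.9 CPM in control-side cells, so by medians the order was reversed (log2 ratio -1.96).

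Calb1 in the P2rx3-low cells at day 7 was at 119 ± 275 against 488 ± 725 CPM, so its log2 ratio was -2.03. The control-side cells stood at 0, 0, 4.30, 337, 747 and 1840 CPM, and the highest SNT-side cell, at 1166 CPM, lay above all but the last of these. Without that control-side cell the log2 ratio was -0.87 and did not pass. Without the cells rich in glial markers, 1 control-side cell was left, which had 0 counts of Calb1, against a mean of 147 CPM on the SNT side. Ldhb, Stxbp6 and Necab2 had log2 ratios of -0.13, -0.039 and -0.66. Altogether 3 markers were higher and 1 lower of 7 with a mean of at least 10 CPM, and their median log2 ratio was -0.039. By medians over the same cells the balance turned, with Pvalb and Spp1 higher and 5 markers lower, namely Calb1 (log2 ratio -2.55), Necab2 (-2.23), Car3 (-1.96), Stxbp6 (-1.51) and Ldhb (-1.08). Of 9648 genes at that level, 11.8% passed (5.23% higher, 6.58% lower), with a median of -0.095. Glial markers stood at a median of 8119 CPM in the 6 control-side and 1360 CPM in the 23 SNT-side cells, and their part in these differences was not tested.

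At day 3 only 2 control-side cells were P2rx3-low, so the comparison with 14 SNT-side cells is weak. These 2 cells had 98.7 and 335 CPM of Nefh, against a median of 517 CPM in the 14 SNT-side cells. Control-side cells above the P2rx3 limit reached 1575 CPM of Nefh. The sides may thus differ in the kind of neuron compared, which was not tested. Both P2rx3-low control-side cells had 0 counts of Pvalb, Car3, Calb1 and Stxbp6. With the control side set to 3 counts over the group, the SNT-side means of 108, 128, 40.6 and 5.28 CPM were at least 64.6-fold, 76.7-fold, 24.2-fold and 3.153-fold higher, in that order. Spp1 was at 0.789 and 9.52 CPM in the control-side cells and from 7.59 through 34.7 to 5962 CPM in the SNT-side cells. Ldhb had a log2 ratio of 1.74 (1.01 to 3.289 with 1 cell left out) and Necab2 of -1.13. Thus 5 markers were higher and 1 lower of 6, and 29.2% of 9936 genes also passed this size (14.3% higher, 14.8% lower), with a median of -0.073. With the limit on P2rx3 at 50 CPM, which adds 2 control-side cells (cell 3 among them) and 4 SNT-side cells (cell 18 among them), the log2 ratio of Calb1 was -0.088 (172 against 183 CPM).

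In the cells above 10 CPM of P2rx3, mean Pvalb was 1.71 and 2.23 CPM on the SNT and control sides at day 3 (27 and 16 cells) and 3.246 and 1.94 CPM at day 7 (10 and 8 cells). Mean Car3 was 0.402 and 0.548 CPM at day 3, and 1.99 and 5.58 CPM at day 7. Spp1, at 13.2 and 27.6 CPM at day 3 and 1.64 and 9.39 CPM at day 7, was lower on the SNT side on both days, by log2 ratios of -1.01 and -1.98, though only the first had 10 CPM on a side. The higher SNT-side means of these 3 genes thus came from the P2rx3-low cells.

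**Figure D3:**
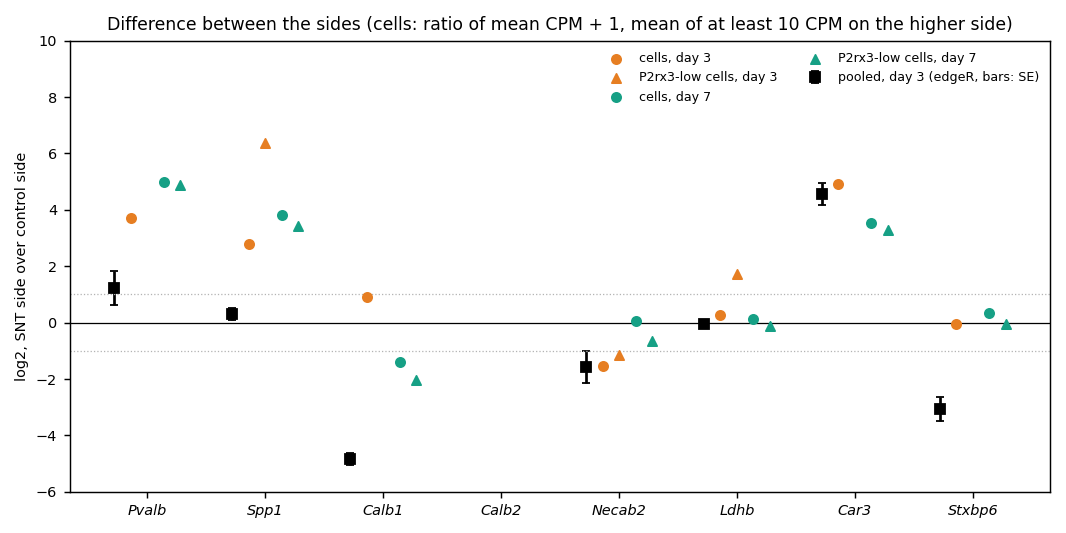
Log2 difference of the SNT side over the control side for each marker in pooled neurons (edgeR log2 change, bars: SE) and in single cells (ratio of mean CPM + 1, no error since each side and day is 1 sample), with dotted lines at 1 and -1. Cell values need a mean of at least 10 CPM on the higher side and counts on both sides, so Calb2 has no point. Car3 was above 1 in every set plotted, Calb1 lay at -4.84 in the pools and at 0.91 in all day-3 cells, and Ldhb stayed near 0 except in P2rx3-low cells at day 3.

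The markers were often found together. A P2rx3-low cell had a mean of 3.5 markers above 10 CPM on the SNT side at day 3 (14 cells) and 2 on the control side (2 cells), and 4.13 and 3.83 at day 7 (23 and 6 cells). In the other cells the means ran from 1.38 to 1.81. The most markers in a cell were 7 of 8, in SNT-side cell 2 at day 7, in which Car3 alone was at 0. Over the 28 pairs of markers, the median rho was 0.33 at day 3 (26 pairs positive, 59 cells) and 0.35 at day 7 (25 positive, 47 cells). In P2rx3-low cells alone it was 0.37 (16 cells) and 0.24 (29 cells).

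Some pairs stood out, though not all of them on both days. Pvalb and Spp1 had a rho of 0.51 at day 3 and 0.57 at day 7, and 8 of the 9 SNT-side cells with Pvalb above 10 CPM at day 3 also had Spp1 above 10 CPM. Calb1 and Stxbp6 had a rho of 0.48 and 0.79, and at day 7, 8 of 9 SNT-side cells with Stxbp6 above 10 CPM had Calb1 as well. Spp1 and Ldhb had a rho of 0.69 at day 3 and 0.39 at day 7, and Necab2 and Ldhb of 0.34 and 0.68. The lower value of each of these pairs lay near the median over all pairs of that day. Calb1 and Car3 had a rho of 0.66 at day 3 and 0.46 at day 7. In the P2rx3-low cells at day 7, Car3 ran against Ldhb (rho -0.61) and Necab2 (rho -0.55) over 29 cells.

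**Figure D4:**
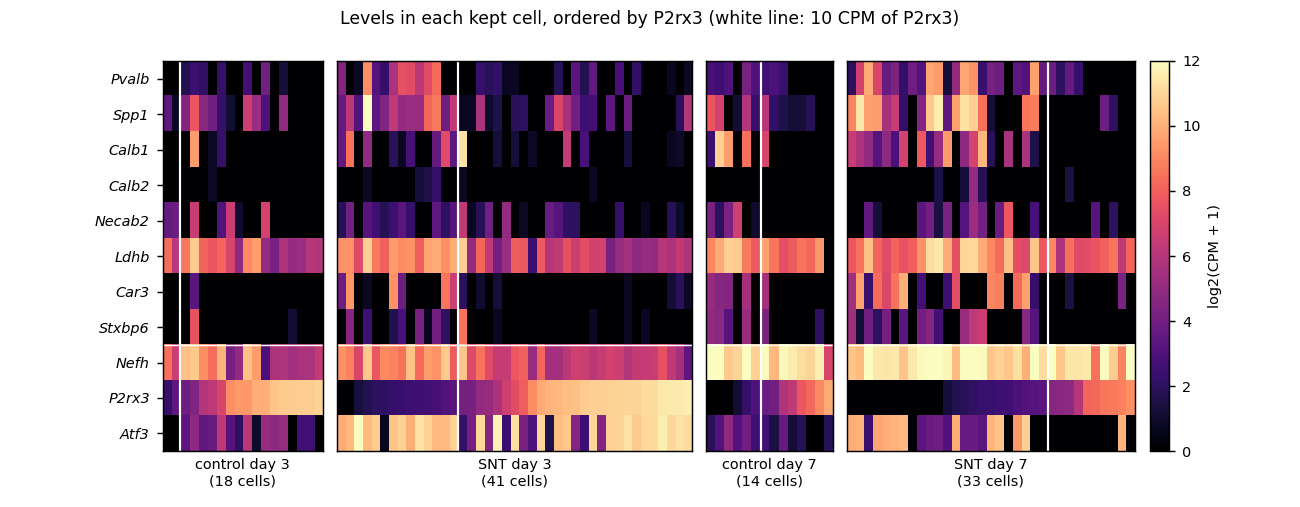
Level of the 8 marker genes, Nefh, P2rx3 and Atf3 in each of the 106 kept cells (columns) as log2(CPM + 1), ordered by P2rx3 within each side and day, with a white line at 10 CPM of P2rx3. On the SNT side the high values of Pvalb, Spp1 and Car3 lay mostly left of the line, while Ldhb was found on both sides of it. The day-3 cells highest in Calb1 and Stxbp6 lay right of the line. At day 7 the 6 SNT-side cells brightest in Pvalb were dim in Car3 and Atf3, while the next 2 were bright in Pvalb, Car3 and Atf3.

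Car3 and Pvalb were set beside Atf3, a transcription factor that sensory neurons switch on after axotomy. At day 7, 12 of 33 SNT-side cells had Atf3 above the highest control-side cell (28.997 CPM), all at 704 CPM or more, and the other 21 were at 13.9 CPM or less. The 12 SNT-side cells with Car3 above 10 CPM were exactly these 12, and the rho of Car3 with Atf3 over the 33 cells was 0.82. The 5 control-side cells with Car3 above 10 CPM had 22.1 to 44.7 CPM of Car3, with 28.997 CPM of Atf3 or less. At day 3, 30 of 41 SNT-side cells had Atf3 above that of any control-side cell (at most 75.7 CPM), and all 6 with Car3 above 10 CPM were among them, but the rho was 0.13.

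Pvalb was spread over both kinds of cell at day 7. The 6 SNT-side cells highest in Pvalb (614 to 937 CPM: cells 2, 7 and 15 from females, 24, 25 and 33 from males) had Atf3 at 13.9 CPM or less and Car3 at 4.21 CPM or less. They also had 432 to 3072 CPM of Spp1, 1421 to 2835 CPM of Ldhb and 5678 to 8013 CPM of Nefh. The next 2 cells, at 131 and 109 CPM of Pvalb, had 874 and 1072 CPM of Atf3 and 314 and 782 CPM of Car3. Most of the SNT-side mean of Pvalb at day 7 thus came from the 6 cells low in Atf3. At day 3, all 9 SNT-side cells with Pvalb above 10 CPM had at least 951 CPM of Atf3. No control-side cell at either day reached 18 CPM of Pvalb, so the high Pvalb cells low in Atf3 at day 7 had no counterpart on the control side. With 14 control-side cells at day 7, 0 such cells still allows a share of up to 23.2% (exact binomial 95% bound).

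**Figure D5:**
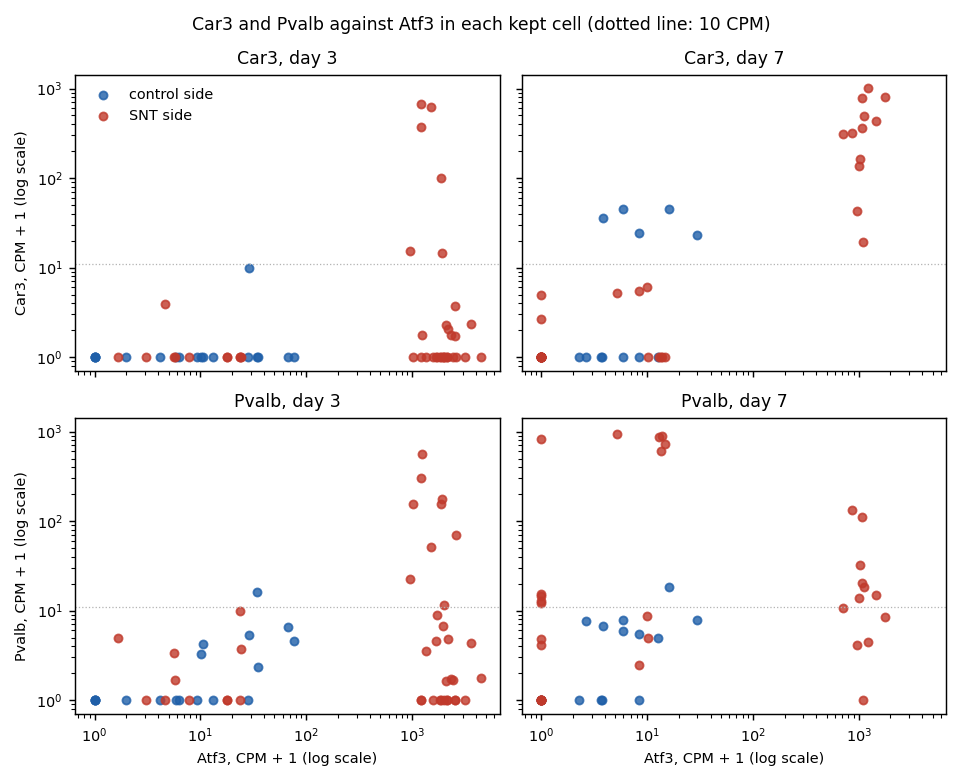
Car3 (top) and Pvalb (bottom) against Atf3 in each kept cell at day 3 (left) and day 7 (right), as CPM + 1 on log axes, with a dotted line at 10 CPM of the marker. At day 7 all 12 SNT-side cells above the Car3 line lay at high Atf3, whereas the 6 cells with the highest Pvalb lay at low Atf3.

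Necab2 at day 7 was led by 1 cell on each side, SNT-side cell 10 at 210 CPM and control-side cell 1 at 106 CPM. Both also carried much of the receptor gene Ntrk2, at 1494 and 1029 CPM, with 0 CPM of Pvalb, Car3 and Stxbp6. These cells were picked out after their values were seen. Over cells, the genes most like Necab2 in pattern were Eno2, Nr1d2 and Dner, with a rho of at least 0.50 on each day.

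For the other markers the genes most alike were named by the lower of the 2 rhos (day 3 and day 7) among 9807 genes found in at least 10 cells of each day. Ldhb was most like Lgi3 (0.82), the malate dehydrogenase Mdh1 (0.81) and Ndufa10, a subunit of mitochondrial complex I (0.79). Stxbp6 was most like the transcription factor Shox2 (0.68), A330050F15Rik (0.65) and Slc17a7 (0.58), and Spp1 was most like the carbonic anhydrase Car2 (0.65) and Sparcl1 (0.61). Car3 was most like Prkab2, a subunit of AMP-activated kinase (0.57), the monocarboxylate transporter Slc16a1 (0.55) and Otud7b (0.54). Calb1 was closest to Pcp4 (0.61), Hs3st2 (0.59) and Mpc2 (0.57), and Pvalb to the acid-sensing channel Asic1 (0.55), the parathyroid hormone receptor Pth1r (0.54) and Cotl1 (0.51). Calb2 had Nsun4, Spryd4 and Ndufv2 as its nearest genes (0.39 to 0.40), which rest on 1 cell above 10 CPM.

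Genes of the same families were counted in single cells as in the pools. Of the 24 relatives, 3 were higher and 2 lower on the SNT side at day 3, among 11 with a mean of at least 10 CPM. At day 7 the counts were 3 and 2 of 13. Over all genes at that level, 5.82% were higher and 6.07% lower at day 3, and 4.45% and 3.2% at day 7. Necab3 and Car10 were lower on both days (Necab3 by log2 ratios of -2.36 and -1.56, Car10 of -1.20 and -1.26). Car1 and Car2 were higher on both days, Car2 by 1.10 and 1.61, and Car1 by 3.475 and 4.13 with 3 and 9 counts on the control side. At day 3 Car1 fell below the limit of 10 CPM without SNT-side cell 14, and Car2 below the limit of size without any one of 4 SNT-side cells (0.87 at the lowest). Summed erythrocyte markers were at 94.1 CPM or less in every kept cell but for 1 SNT-side cell at day 7 with 4670 CPM, and their part in the Car1 level was not tested.

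Of the 19 other large-neuron genes, 0 were higher and 1 lower at day 3 among 15. At day 7, 6 were higher and 0 lower among 18. The shares over all genes were 5.82% higher and 6.07% lower at day 3, and 4.45% and 3.2% at day 7. The 6 genes higher at day 7 were Ntrk3, the transcription factors Runx3 and Etv1, Slc17a7, the potassium channel Kcnc1 and Esrrg. Ntrk3 no longer passed without SNT-side cell 22 (0.93), and the gene lower at day 3, Scn1a, not without control-side cell 3 (-0.95). Runx3, which marks developing proprioceptors, was at 20.2 against 0.239 CPM at day 7, and Kcnc1 at 164 against 29.97 CPM. Runx3, Etv1, Kcnc1, Ntrk3 and Esrrg also passed in the P2rx3-low cells at day 7, beside Nefl and Cacna1h, which were lower (log2 ratios -1.12 and -1.89). In these cells 5 of 17 listed genes were thus higher and 2 lower, where 5.23% of all genes were higher and 6.58% lower. The calls in P2rx3-low cells are differences of means. By medians Etv1 (21.4 against 88.2 CPM) and Esrrg (19.4 against 43.7 CPM) were lower on the SNT side. Runx3 had a median of 0 on both sides. Esrrg lost its call without any one of 8 cells (0.78 at the lowest), Nefl without control-side cell 8 (-0.81), and Cacna1h turned to 1.52 without control-side cell 1.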

How the data were processed

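Expression was measured by Smart-seq2 in 117 single DRG neurons and 6 pooled libraries. The authors aligned reads with bowtie2 after CASAVA 1.8.2, removed ribosomal RNA annotations and estimated RefSeq gene levels with RSEM (mm9 per the labels). The deposited tables are named TPM, but their values were expected counts: 60.7 to 93.6% of a library's values above 0 were whole, and totals ran from 223967 to 2003817. Ambiguous reads can be split between related genes in such estimates.

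CPM was the value divided by the library total, times 1000000. The 8 markers and the other lists were chosen with earlier results of these data known. Pooled counts were rounded and tested with edgeR 4.0.16 (R 4.3.3, TMM, genes averaging 1 CPM or more, Benjamini-Hochberg over all genes). DESeq2 1.42.0 and limma 3.58.1 were alternatives. The edgeR script was tested on simulated data. Cells got no test, but means, SD, exact binomial intervals (scipy 1.17.1) and the log2 ratio of mean CPM + 1. Named genes were the 8 markers, the listed genes, P2rx3, and the 3 genes closest to each marker by the lower Spearman rho of the days, of which 1 is not reported here. Library numbers were not taken as pairs, since deviations of same-numbered libraries correlated by 0.058, -0.017 and -0.0066. Coordinates and sequences are not given, as the annotation at hand is of another build.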

Additional observations from a re-analysis of the deposited data

Results flagged for a closer look

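Necab2 stood at 106 CPM in control-side cell 1 at day 7, apart from the other 5 P2rx3-low control-side cells, the next of which was at 18.0 CPM. This gap passed Dixon's 95% limit for 1 of 7 markers tested, all in these same cells. Chance gives about 1 in 20 for normally distributed values, which these CPM were not shown to be.

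Among the day-3 cells that the authors left out, 5 values on the SNT side lay above every control-side cell. Calb2 was at 79.5 CPM (53 counts) in cell 33 and at 19.9 CPM (8 counts) in cell 38, against at most 0.755 CPM in control-side cells. Ldhb was at 1891 CPM in cell 37, against 1682 CPM. Car3 was at 41.1 CPM (16 counts) in cell 40, against 8.77 CPM, and Pvalb at 59.8 CPM (29 counts) in cell 41, against 15.3 CPM. Among the kept cells, 1 had Calb2 above 10 CPM, and others had lower values.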

How the results depend on the processing

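In the pools, 89 of 96 alternative values of the markers kept direction and call, and the other 7, all for Necab2, kept direction but lost the call (DESeq2, the replicate block and 5 single libraries left out). Markers called numbered 3 to 4, relatives 3 to 5 without 1 library. A mean of at least 10 CPM removed Necab2 and Pvalb from the test. The replicate block, on numbers that do not pair the libraries, gave 3 markers, 8 other large-neuron genes, 5 relatives and 2009 genes. Of all calls, 1196 of 2157 were higher, against 980 of 2244 by library size alone, where the median of all genes moved to -0.14, and 1010 of 2104 with limma. The 4 markers called kept their direction in each.

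In single cells, 205 alternative values of the markers moved by less than 1 SD over cells, and 43 by more. Another 8 changed sign, counted only for markers past the limit. The 205 and 43 also hold sign changes of other markers, such as Calb1 at day 3 (0.91, or -1.24 without SNT-side cell 18). Medians over cells gave 0 markers past the limit at day 3, 2 at day 7 and 7 in P2rx3-low cells at day 7 (2 higher, 5 lower). With 1 cell left out, 3 to 6 markers passed at day 3, 3 to 5 at day 7, and 6 and 3 to 5 in P2rx3-low cells. The medians over cells turned Necab2 to 1.84 at day 3, Calb1 to 1.88 at day 7 and Car3 to -1.96 in P2rx3-low cells at day 7. Without cells rich in glial markers (chosen after seeing the data) Spp1 was -0.075 at day 3, and Calb1 2.43 at day 7 and 7.211 in P2rx3-low cells, where the 1 control-side cell left had none. Calb1 was 2.93 in female cells and -0.088 with P2rx3 up to 50 CPM at day 3. With 50 CPM as the limit for a marker, P2rx3-low control-side cells at day 3 held 1 on average. The cause was not tested. P2rx3 at 1 CPM or less left no control-side cell at day 3, and no day-7 cell had been left out by the authors, so these gave no value. Thinning to 200000 counts lost no cell.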
